A study of Mus musculus with 48 samples.

Results

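The genotype effect of mutant huntingtin was compared between 2 brain regions of the same 11-month-old mice. The comparison covers 16 of the 48 arrays of the study and 8 of its 24 mice: striatum and cortex of 4 BACHD-ΔN17 mice (TG) and of 4 wild-type mice (WT), 2 males and 2 females of each genotype, all of strain FvB/NJ. For each mouse the cortical level of a transcript was subtracted from its striatal level, and this within-mouse difference was compared between genotypes. The remaining 32 arrays, from mice of 2 and 7 months, entered the estimate of the spread and are given where they show the course of a change. Both regions came from each mouse by the mouse name in the labels, and mice are numbered 1 to 4 within a genotype, with the same number in both regions.

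BACHD mice carry a mutant human huntingtin gene with an expanded glutamine repeat on a bacterial artificial chromosome, and serve as a model of Huntington's disease. In the ΔN17 form the protein lacks its N-terminal segment, which is known to influence where huntingtin resides in the cell. The labels do not give the promoter of the transgene or the number of founder lines, and no full-length BACHD mice were part of these arrays. Huntington's disease is known for loss of transcripts from striatal projection neurons, the inhibitory output cells that carry dopamine receptors, with later involvement of cortical pyramidal neurons, which project to the striatum. Genes that give each neuron type its identity, genes switched on by synaptic activity, and genes of reactive astrocytes and microglia are the groups most often followed in this disease.

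Levels are normalized log2 values of a probe, so a difference of 1 is a doubling, and only changes of the same probe are compared. The median array signal was 212.7 to 282.8, 12477 to 14184 of 25697 probes were detected per array, and the detection floor lay at 5.67 to 6.17 on the normalized log2 scale. Sample numbers 1 to 8 took in 5 of the 16 arrays: the striatum of TG mouse 1 and the cortex of TG mice 1 and 3 and of WT mice 1 and 3. These had fewer detected probes (12477 to 13187) than the other 11 (13226 to 14184) and a higher detection floor (5.93 to 6.17 against 5.67 to 5.92), while their median signals (212.7 to 236.7) overlapped those of the others (220.2 to 282.8). The region labels fitted their markers: Ppp1r1b, Drd1, Drd2, Rgs9 and Pde10a were higher in striatum in 8 of 8 mice, and Slc17a7, Tbr1, Nptx1 and Slc30a3 were lower in striatum than in cortex in 8 of 8. Adcy5, a striatal adenylyl cyclase, was higher in striatum in 6 of 8 mice, and Neurod6 and Lamp5 were not among the features tested. Htt did not pass in either region, with changes of -0.10 in striatum and 0.01 in cortex (limma adjusted p = 0.83 and 0.99); whether its probe reads the human transgene is not stated, so it does not check the genotype labels. Tissue was measured in bulk, so fewer cells of a type and less RNA per cell cannot be told apart.

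Most genotype changes could not be assigned to one region. Of 11573 features tested, 1127 were lower (9.74%) and 975 higher (8.42%) in TG than in WT striatum, and 1009 were lower (8.72%) and 770 higher (6.65%) in TG than in WT cortex (limma, adjusted p under 0.05). This balance rested on quantile normalization: with each array scaled to a common median, 1421 were lower and 275 higher in striatum and 422 lower and 196 higher in cortex. Both regions passed for 709 features, 675 of them in the same direction. The change in striatum minus the change in cortex passed for 585 features, 292 above 0 (2.52%) and 293 below 0 (2.53%). Striatum alone, meaning a change that passed in striatum, did not pass in cortex and differed between the regions, held 176 lower features (1.52%) and 110 higher ones (0.95%). Cortex alone held 118 lower (1.02%) and 61 higher features (0.527%). A further 425 features (3.67%) changed alike in both, with a 95% interval of the difference inside 1.5-fold either way. Both regions changed in the same direction but by different amounts for 22 features with the larger change in striatum (0.19%) and 11 with the larger change in cortex (0.095%). Opposite directions held 34 features (0.294%). In 1998 features one region passed and the other did not, yet the regions did not differ by test, so these were not assigned to one region. In 217 more both regions passed but the interval was too wide to call the sizes alike. These counts depended on the mice used: 373 differences passed without WT mouse 3, striatum alone then held 178 features (187 without TG mouse 1), cortex alone 113 without TG mouse 3, 117 without WT mouse 3 and 119 without TG mouse 1, the alike class 267 without TG mouse 2, 268 without WT mouse 4 and 279 without TG mouse 3, and the opposite class 20 without WT mouse 4 and 22 without WT mouse 1. With the 2 TG and 2 WT mice that had no array in numbers 1 to 8, 67 differences passed, 64 of them among the 585 and all 64 with the same sign.

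**Figure D1:**
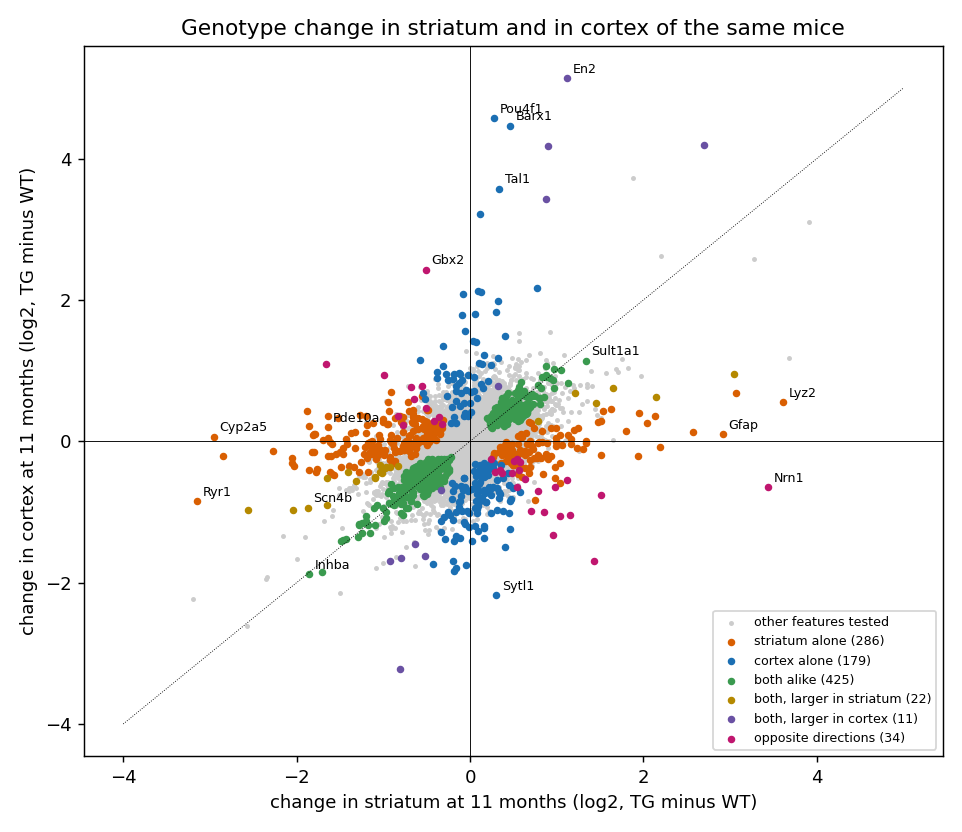
Change in striatum (x axis) against change in cortex (y axis) of each of 11573 features at 11 months, both as log2 of TG minus WT; each point is a feature, coloured by class, and the dotted line marks equal change. Values against a group below background are fitted ones and not sizes. Pou4f1 lies near 0 in striatum and Barx1 slightly right of 0, both at the top in cortex. Gfap and Lyz2 lie far right near 0 in cortex, and Nrn1 lies right of 0 and below it.

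Transcripts were more often lower in the region in which they are normally higher. Regional level was taken from the 8 WT mice of 2 and 7 months, none of which enters the 11-month contrast. Of 139 features higher in striatum by over 2 on the log2 scale, 100 (71.9%) were lower in TG striatum and 18 (12.9%) in TG cortex. Of 164 features higher in cortex by over 2, 10 (6.1%) were lower in TG striatum and 87 (53%) in TG cortex. Among the 8660 features within 0.5 of equal, the shares were 6.11% in striatum and 5.69% in cortex. The difference between regions passed below 0 for 62 of the 139 striatum-enriched features and above 0 for none of them, while it passed above 0 for 32 and below 0 for 1 of the 164 cortex-enriched features.

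A fall cannot be measured where a feature is not above background, so the same shares were taken over features detected on all 16 arrays, a restriction chosen after seeing the data. Then 40 of 55 striatum-enriched features (72.7%) were lower in TG striatum and 13 (23.6%) in TG cortex, and 6 of 89 cortex-enriched features (6.74%) were lower in TG striatum and 48 (53.9%) in TG cortex. The median striatum-minus-cortex level of the 139 striatum-enriched features was 1.999, 2.104, 2.14 and 2.153 in the 4 TG mice, against 2.867, 2.67, 2.799 and 2.795 in the 4 WT mice. For the 164 cortex-enriched features it was -2.051, -2.003, -1.965 and -2.274 in TG mice, against -2.769, -2.362, -2.803 and -2.631 in WT mice. The genotypes did not overlap in either set, and the regions stood closer together in TG mice.

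**Figure D2:**
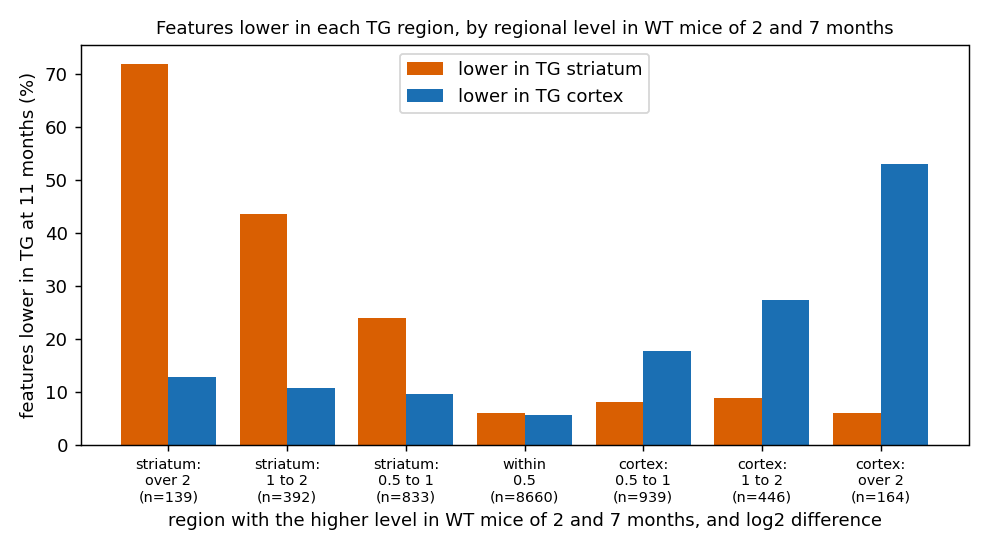
Percent of features lower in TG at 11 months (y axis) in striatum (orange) and cortex (blue), by the region in which they are higher in WT mice of 2 and 7 months and the log2 size of that difference (x axis, with the number of features). At the striatal end the orange bar stands at 71.9% and the blue at 12.9%, and at the cortical end the orange bar stands at 6.1% and the blue at 53%.

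Among the 176 features lower in striatum alone, 96 (54.5%) were higher in striatum than in cortex by over 1 in WT mice of 2 and 7 months, against 4.59% of all features. Pde10a, the phosphodiesterase of projection neurons that breaks down cyclic nucleotides, stood at 10.19, 9.95, 9.94 and 10.16 in TG striata, against 11.60, 11.53, 12.04 and 11.63 in WT striata. In cortex it stood at 7.68, 7.34, 6.19 and 7.12 in TG mice and at 6.65, 7.46, 5.95 and 7.47 in WT mice. The striatal groups were apart and the cortical ones overlapped. Its change was -1.64 (SE 0.11) in striatum and 0.20 (SE 0.29) in cortex, and the difference of -1.84 passed (95% interval -2.55 to -1.13, limma adjusted p = 0.00223).

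Cnr1, the cannabinoid receptor, had 6.17, 6.74, 6.23 and 6.92 in TG striata, against 8.41, 8.41, 8.86 and 8.50 in WT striata, and 7.27, 7.29, 7.04 and 7.10 in TG cortex, against 7.68, 7.55, 7.46 and 7.39 in WT cortex. It was lower in all TG samples of both regions, but the cortical change of -0.34 did not pass (adjusted p = 0.16) and the difference did (-1.68, SE 0.26, adjusted p = 0.000359). Within mice, Cnr1 was higher in cortex than in striatum in 4 of 4 TG mice (striatum minus cortex -1.102, -0.545, -0.808 and -0.183) and higher in striatum in 4 of 4 WT mice (0.731, 0.857, 1.393 and 1.115). Drd1, the dopamine receptor of direct-pathway neurons, changed by -1.12 in striatum and -0.12 in cortex (difference -0.997, adjusted p = 0.00191). Actn2, an actin crosslinker of spines, changed by -1.64 and 0.36 (difference -2.0, adjusted p = 1.11e-06).

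The cholinergic interneuron genes Slc18a3, the vesicular acetylcholine transporter, and Chat, which makes acetylcholine, were also lower in striatum alone. Slc18a3 stood at 6.74, 6.85, 6.39 and 6.66 in TG striata, against 7.78, 7.68, 8.08 and 7.95 in WT striata, and it was not well above background on any cortical array of 11-month mice. Chat changed by -1.02 in striatum and -0.12 in cortex, and its difference of -0.90 (adjusted p = 0.0248) did not pass when any of 5 mice was left out (TG mice 1 and 2, WT mice 2, 3 and 4). Cyp2a5, a cytochrome P450, had 5.42, 5.91, 5.68 and 6.16 in TG striata, against 8.72, 8.77, 8.65 and 8.84 in WT striata. Cyp2a5, Upb1, an enzyme of pyrimidine breakdown, St8sia2, which builds polysialic acid, Itga9, an integrin, and Rasgrp2, an activator of Rap, were also not well above background on any cortical array, so a cortical fall in them could not be seen. This held for 34 of the 176 features.

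Of 36 tested genes of the projection neuron list, 31 were lower and 0 higher in TG striatum, 12 were lower and 0 higher in TG cortex, and the difference passed below 0 for 16 and above 0 for 2. The list's median change was -0.80 in striatum and -0.26 in cortex, against 0.02 and 0.01 for all features. Of the 36, 14 were lower in striatum alone. Shares of all features were 9.74% lower in striatum, 8.72% lower in cortex and 1.52% lower in striatum alone. With the 2 TG and 2 WT mice outside numbers 1 to 8 the medians were -0.68 and -0.16, with 3 differences below 0. The list also held genes that did not follow this. Scn4b, a sodium channel subunit, was lower in both regions and more so in striatum: 12.52, 12.28, 12.12 and 12.34 in TG striata, against 14.13, 14.25, 14.21 and 14.18 in WT striata, and 11.05, 11.45, 11.00 and 10.96 in TG cortex, against 12.41, 11.82, 11.93 and 12.05 in WT cortex. No groups overlapped, and the changes of -1.87 and -0.94 differed (difference -0.94, SE 0.18, adjusted p = 0.00278). Drd2, the dopamine receptor of indirect-pathway neurons, changed by -1.65 in striatum and -0.91 in cortex, and the difference of -0.74 (adjusted p = 0.0456) did not pass when any of 6 mice was left out (TG mice 2, 3 and 4, WT mice 1, 3 and 4).

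By their brightest probes Pdyn and Arpp21 fell more in cortex. Pdyn, the precursor of dynorphin, changed by -0.64 in striatum and -1.45 in cortex (difference 0.81, adjusted p = 0.0194, not passed without TG mouse 1 or 4 or WT mouse 1 or 3), and Arpp21, a cyclic AMP-regulated phosphoprotein, by -0.33 and -0.69 (difference 0.36, adjusted p = 0.0444). The other probe of Pdyn gave -0.88 and -1.27, with a difference of 0.39 (limma unadjusted p = 0.094), and the call was also lost with the mean of both probes. Ppp1r1b, the phosphoprotein DARPP-32, changed by -0.67 and -1.05 by its brightest probe, and the difference of 0.38 did not pass (adjusted p = 0.098). Its 2 other probes gave the opposite order, with -1.32 and -1.16 in striatum and -0.36 and -0.34 in cortex, so the region in which Ppp1r1b fell more depended on the probe. Rgs4, a regulator of G protein signalling, was alike in both regions, at -1.29 and -1.17.

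Higher in striatum alone were 13 of 27 activated microglia genes, 3 of 18 astrocyte genes and 2 of 19 reactive astrocyte genes, against 0.95% of all features. Lyz2, a lysozyme of myeloid cells, had 11.31, 10.61, 10.82 and 10.91 in TG striata, against 7.31, 7.44, 7.18 and 7.26 in WT striata, while cortex had 6.78, 8.44, 8.65 and 7.84 in TG mice and 7.89, 7.41, 7.50 and 6.70 in WT mice. The striatal groups lay over 3 apart and the cortical ones overlapped. The changes were 3.62 (SE 0.23) and 0.56 (SE 0.34), with a difference of 3.06 (adjusted p = 0.000465). Gfap, the intermediate filament of astrocytes, had 10.93, 10.39, 10.64 and 10.58 in TG striata, against 7.78, 8.52, 7.22 and 7.37 in WT striata, and 8.28, 8.09, 7.54 and 7.51 in TG cortex, against 7.50, 8.02, 7.93 and 7.56 in WT cortex. Its changes were 2.91 and 0.10, with a difference of 2.81 (95% interval 2.04 to 3.58, adjusted p = 7.82e-05).

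Of 27 tested genes of the activated microglia list, 19 were higher and 2 lower in TG striatum, 1 was higher and 3 were lower in TG cortex, and the difference passed above 0 for 15 and below 0 for 0. Median changes were 0.73 and -0.11 (0.63 in striatum with 3 genes below background in one genotype set at their bound); with the 2 TG and 2 WT mice outside numbers 1 to 8 they were 0.64 and 0.15, with 2 differences above 0. The chemokines Ccl3 (at least 2.15-fold in striatum, below background in WT striatum and in cortex) and Ccl4 (2.57 in striatum, below background in cortex), the galectin Lgals3 (2.14 and 0.36), the innate receptor Tlr2 (1.31 and -0.11), Trem2 and its adaptor Tyrobp (0.50 and 0.84 in striatum, -0.34 and -0.47 in cortex) and the complement genes C1qa and C1qc (0.77 and 0.73 in striatum, -0.24 and -0.11 in cortex) were higher in striatum alone. The summed level of the list on a linear scale was 55012 to 63125 in TG striata against 41533 to 44534 in WT striata, and 27294 to 33155 in TG cortex against 30782 to 35484 in WT cortex. Of 14 homeostatic microglia genes, 0 were higher and 4 lower in striatum, and 1 was higher and 3 were lower in cortex. For both microglia lists the shares of all features were 8.42% higher and 9.74% lower in striatum, and 6.65% higher and 8.72% lower in cortex. P2ry12, the purine receptor of resting microglia, changed by -0.93 in striatum and -0.22 in cortex, with a difference of -0.71 (adjusted p = 0.0383) that did not pass without any of 6 mice (TG mice 1, 2 and 3, WT mice 2, 3 and 4).

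Part of the reactive astrocyte genes were higher in each region. Of 19 tested, 11 were higher in TG striatum and 8 in TG cortex, none were lower, and the difference passed above 0 for 4 and below 0 for 1. Nothing passed for 7 of the 19. Shares of all features higher were 8.42% in striatum and 6.65% in cortex. A further 8 members did not pass the detection filter, and 2 tested ones were below background in one genotype in striatum. The filter could admit such genes through TG arrays only, so the lack of lower members does not test direction. C4b, a complement component, had 11.38, 11.09, 11.20 and 11.08 in TG striata, against 9.37, 9.24, 8.53 and 9.03 in WT striata, and 8.47, 8.39, 8.53 and 8.14 in TG cortex, against 7.77, 7.67, 7.66 and 7.96 in WT cortex. It was higher in both regions and more so in striatum, by 2.14 and 0.62 (difference 1.52, adjusted p = 0.00435). Serpina3n, a protease inhibitor, followed it (1.46 and 0.54). Vim, an intermediate filament, and Osmr, the oncostatin M receptor, were higher in both, by 1.71 and 0.98 and by 1.20 and 0.75, without a difference that passed (adjusted p = 0.129 and 0.409). Amigo2, an adhesion molecule of reactive astrocytes, was higher in cortex alone (-0.07 and 0.55). Choroid plexus and ependyma genes, a list added after seeing the data, summed to 10782 to 30960 in TG striata against 5770 to 13659 in WT striata, with the anti-ageing receptor Kl higher in TG striatum (1.11, adjusted p = 0.0435) and the transthyretin gene Ttr not passing (1.26, adjusted p = 0.177); their part in these results was not tested.

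Of 17 tested genes of the homeobox and developmental list, 5 were higher in cortex alone (Hoxa7, Hoxb2, Hoxc9, Hoxd8 and Hoxd9), 2 were higher in both regions and more so in cortex (Hoxb5 and Hoxc6), and 1 was higher in striatum alone. Pou4f1, Barx1, Tal1, En2 and Twist1 are transcription factors outside that list, named for their large differences. Pou4f1, a POU factor of sensory and some midbrain neurons, had 9.39, 9.29, 9.92 and 9.30 in TG cortex, against 5.07, 4.72, 4.86 and 4.95 in WT cortex, while striatum had 5.00, 5.04, 5.39 and 5.22 in TG mice and 4.96, 4.73, 4.86 and 4.98 in WT mice. It was not well above background in WT cortex or in either striatal group, so its cortical level was at least 11.1-fold higher (limma adjusted p = 8.31e-16), and a change in striatum could not be measured. Barx1, a homeobox gene of stomach and jaw development, had 9.01, 9.69, 9.55 and 9.08 in TG cortex, against 4.87, 4.91, 4.77 and 4.92 in WT cortex, and 4.89, 5.58, 5.97 and 5.58 in TG striata, against 5.02, 5.13, 5.05 and 4.97 in WT striata. WT cortex was not above background, the cortical level was at least 10.0-fold higher in TG mice, and the cortical groups did not overlap. Tal1, a basic helix-loop-helix factor of blood and midbrain development, was at least 6.53-fold higher in TG cortex.

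En2, a homeobox gene of midbrain and cerebellum, was higher in both regions and more so in cortex. It had 8.12, 8.24, 8.10 and 8.15 in TG striata, against 6.95, 7.6, 6.95 and 6.63 in WT striata, and 10.44, 10.47, 11.04 and 10.74 in TG cortex, against 5.94, 5.62, 5.29 and 5.28 in WT cortex. The striatal change was 1.12 (SE 0.19) and the cortical level was at least 25.3-fold higher, WT cortex being below background (adjusted p of the difference = 1.58e-10). Twist1, a mesoderm factor, was at least 14.3-fold higher in TG cortex and 0.90 higher in striatum, and Hoxc6 was at least 8.62-fold higher in cortex and at least 3.77-fold higher in striatum. Of the 17 listed genes, 4 were higher in TG striatum and 9 in TG cortex, none were lower, and the difference passed below 0 for 7 and above 0 for 1. The detection filter could admit a listed gene through TG arrays only, and one below background in WT mice could not be called lower. These counts and the list medians therefore do not test the direction of the genotype change. The fitted list median was 0.26 in striatum and 1.21 in cortex (0.25 and 0.97 with the mice outside numbers 1 to 8). With genes below background in one genotype at their bound (4 in striatum, 7 in cortex) it was 0.26 in striatum and 0.66 in cortex. A further 27 members with a probe did not pass the detection filter and were not tested. Irx5 ran the other way, at least 1.93-fold higher in striatum alone, and Wt1, the Wilms tumour factor, was higher in both, at least 6.56-fold and 3.98-fold. Meninges and perivascular fibroblast genes, a list also added after seeing the data, summed to 14018 to 20118 in TG cortex against 7850 to 15856 in WT cortex; their part in the values of Twist1 and the other factors was not tested.

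The promoters of genes with large one-sided changes are shown because they differ in CpG density, with each CpG in capitals. Sequences run from 250 bases before to 50 bases after the start of the gene, from RefSeq on GRCm38.p6 (8595 of 10634 named features tested had one). By their brightest probes, Pou4f1 (chr14:104467950-104468249, minus strand, 57 CpG) and Barx1 (chr13:48662786-48663085, plus strand, 50 CpG) were higher in cortex alone, and Gfap (chr11:102897151-102897450, minus strand, 3 CpG) and Lyz2 (chr10:117282223-117282522, minus strand, 1 CpG) in striatum alone.
Pou4f1: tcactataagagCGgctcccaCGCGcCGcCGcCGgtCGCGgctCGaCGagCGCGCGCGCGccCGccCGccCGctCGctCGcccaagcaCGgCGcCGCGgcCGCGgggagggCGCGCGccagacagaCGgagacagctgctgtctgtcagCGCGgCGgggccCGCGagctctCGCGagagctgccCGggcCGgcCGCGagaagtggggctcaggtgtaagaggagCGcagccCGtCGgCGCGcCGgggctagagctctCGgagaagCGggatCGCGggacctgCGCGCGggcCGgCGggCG
Barx1: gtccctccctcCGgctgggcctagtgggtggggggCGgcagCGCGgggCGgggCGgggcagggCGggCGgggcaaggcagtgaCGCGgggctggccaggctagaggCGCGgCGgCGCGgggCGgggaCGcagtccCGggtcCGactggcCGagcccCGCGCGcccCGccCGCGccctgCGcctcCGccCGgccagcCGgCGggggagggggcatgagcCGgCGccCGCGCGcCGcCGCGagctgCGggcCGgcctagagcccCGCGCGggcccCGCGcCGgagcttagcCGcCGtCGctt
Gfap: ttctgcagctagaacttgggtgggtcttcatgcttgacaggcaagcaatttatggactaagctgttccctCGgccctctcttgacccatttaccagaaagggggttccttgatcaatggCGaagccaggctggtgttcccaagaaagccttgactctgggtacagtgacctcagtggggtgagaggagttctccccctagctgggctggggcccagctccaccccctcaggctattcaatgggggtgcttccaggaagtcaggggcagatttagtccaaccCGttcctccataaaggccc
Lyz2: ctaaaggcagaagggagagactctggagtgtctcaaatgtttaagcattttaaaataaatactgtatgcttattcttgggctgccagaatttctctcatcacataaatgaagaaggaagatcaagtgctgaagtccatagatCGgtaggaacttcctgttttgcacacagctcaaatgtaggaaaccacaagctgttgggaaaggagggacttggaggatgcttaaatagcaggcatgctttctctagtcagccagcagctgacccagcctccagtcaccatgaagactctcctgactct
The contrast of these 4 was not that of their classes. The median CpG count was 13 over 83 promoters higher in striatum alone and 15 over 42 higher in cortex alone (14 over the 15 that rose by over 1), against 20 over all 8595, and within each class it ranged from 1 to 50 and from 1 to 57. The motifs searched, on both strands, were the cyclic AMP response element TGACGTCA, the Egr1 site GCGTGGGCG, the STAT site TTCCNGGAA and the interferon-stimulated response element. The last was in 2 of 83 promoters higher in striatum alone (2.41%) against 2.8% of all. The STAT site was present in the Gfap promoter, and in 1 of 83 promoters higher in striatum alone (1.2%) against 1.14% of all. The cyclic AMP response element was in 9 of 141 promoters higher alike in both regions (6.38%) and in 4 of 168 lower alike (2.38%), against 3.05% of all.

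Of the features lower in cortex alone, many were cortical ones in WT mice: 43 of 118 (36.4%) were higher in cortex by over 1, against 5.27% of all features. Tnnc1, slow troponin C, had 8.44, 8.12, 8.41 and 8.03 in TG cortex, against 10.02, 10.41, 9.43 and 10.06 in WT cortex, and 6.38, 6.57, 6.72 and 6.34 in TG striata, against 6.66, 7.18, 6.64 and 7.23 in WT striata. The cortical change was -1.73 (SE 0.22), the striatal one -0.42 (adjusted p = 0.157), and the difference was 1.31 (adjusted p = 0.00357). Cux2, a homeobox gene of upper-layer neurons, had 9.84, 10.09, 10.54 and 10.54 in TG cortex, against 11.07, 10.98, 10.79 and 11.04 in WT cortex, without overlap. It changed by -0.72 in cortex and by 0.58 in striatum, which did not pass (adjusted p = 0.0882), and the difference was 1.30 (adjusted p = 0.00578). Sytl1, a Rab27 effector of exocytosis, Scube1, a secreted EGF-domain protein, and Otop2, a proton channel, were not well above background in any striatal array of 11-month mice and were lower in cortex, with changes of -2.18 for Sytl1 and -1.75 for Scube1. Otop2 was also below background in TG cortex, at least 2.21-fold lower.

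The general markers of cortical excitatory neurons had no common direction of the difference between regions. Of 26 tested, 7 were lower and 2 higher in TG striatum, and 8 were lower and 2 higher in TG cortex. The difference passed above 0 for 2 and below 0 for 3, against 2.52% and 2.53% of all features. Slc17a7, the vesicular glutamate transporter of cortical neurons, changed by 0.24 in striatum and -0.45 in cortex, and Tbr1, a deep-layer factor, by 0.18 and -0.32; both passed in cortex, with no difference that passed (adjusted p = 0.735 and 0.758). Nptx1, a neuronal pentraxin, fell in striatum alone (-1.0 and 0.27), where it was detected on 1 of 4 TG arrays; the difference did not pass without TG mouse 2, 3 or 4 or WT mouse 1 or 2. The glial genes Aldh1l1, a folate enzyme of astrocytes, and Gpr17, a receptor of oligodendrocyte precursors, were lower in cortex alone (-0.50 and -0.70, against 0.15 and -0.02 in striatum). Both lost the difference without TG mouse 1 or 3 or WT mouse 1; Aldh1l1 also without TG mouse 2 or WT mouse 4, and Gpr17 also without WT mouse 3.

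Opposite directions were found for 34 features, 22 higher in TG striatum and lower in TG cortex, and 12 the other way. Nrn1, neuritin, a membrane-anchored factor of neurite growth, had 11.49, 11.40, 11.64 and 11.46 in TG striata, against 6.91, 9.93, 7.48 and 7.92 in WT striata, and 12.92, 12.99, 13.17 and 13.22 in TG cortex, against 13.79, 13.77, 13.61 and 13.75 in WT cortex. Neither pair of groups overlapped, and in striatum WT mouse 2 stood above the other WT mice. Its change was 3.44 (SE 0.51), or 10.8-fold, in striatum and -0.65 (SE 0.08) in cortex (adjusted p = 1.81e-05 and 2.3e-06), with a difference of 4.09 (95% interval 2.82 to 5.36, adjusted p = 0.000294). Nrn1 is a cortical transcript in WT mice, where it was 5.16 lower in striatum at 2 and 7 months. Of the 26 tested genes of the cortical excitatory neuron list, 2 were higher and 7 lower in TG striatum. Slc17a7 and Tbr1 did not pass there (limma adjusted p = 0.877 and 0.872). The part of these genes' cells in the striatal values of Nrn1 was not tested.

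Casp1, the inflammasome protease, had 8.18, 8.31, 8.29 and 8.45 in TG striata, against 7.39, 7.58, 7.42 and 7.69 in WT striata, and 9.84, 9.79, 9.20 and 9.89 in TG cortex, against 10.31, 10.56, 10.40 and 10.27 in WT cortex, without overlap in either region (0.79 and -0.71, difference 1.49, adjusted p = 0.00028). Cdkn1c, a cell-cycle inhibitor, changed by 1.52 and -0.76, and was higher in striatum than in cortex in 4 of 4 TG mice (1.12, 0.665, 0.225 and 0.294) and lower there in 4 of 4 WT mice (-1.35, -1.862, -1.968 and -1.614). Evc2, a ciliary protein of hedgehog signalling, changed by 1.16 and -1.04, and Ccdc3, a secreted protein, by 0.95 and -1.32. Lyzl4, a lysozyme-like gene below background in WT striatum, was at least 1.96-fold higher in TG striatum and changed by -1.70 in cortex. Fcgr2b, the inhibitory receptor for immunoglobulin G, changed by 1.04 and -1.05. The lipid carrier Apoe also belonged to the class (0.63 and -0.54, adjusted p of the difference = 0.000441).

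Of the 12 features lower in striatum and higher in cortex, 8 were higher in striatum by over 1 in WT mice of 2 and 7 months; 13 of the 22 in the other direction were higher in cortex by over 1. Gbx2, a homeobox gene of the cholinergic and thalamic lineages, had 7.86, 7.46, 8.00 and 7.42 in TG striata, against 7.91, 8.30, 8.41 and 8.17 in WT striata, and 7.75, 7.20, 7.32 and 7.48 in TG cortex, against 5.04, 5.07, 4.80 and 5.13 in WT cortex, where it was not well above background. Its cortical level was at least 2.69-fold higher, the striatal change was -0.51 (adjusted p = 0.0321) with overlapping groups, and the difference passed (adjusted p = 6.62e-08). Lmo3, a LIM-only transcription cofactor, had 11.48, 11.80, 11.67 and 11.86 in TG striata, against 12.31, 12.23, 12.43 and 12.42 in WT striata, and 11.24, 10.79, 10.95 and 10.49 in TG cortex, against 10.14, 10.45, 9.98 and 10.49 in WT cortex, where TG mouse 4 and WT mouse 4 were level (-0.65 and 0.60, difference -1.25, adjusted p = 0.000869). Rem2, a small GTPase that restrains calcium channels, changed by -0.68 and 0.77, Cldn23, a claudin, by -1.67 and 1.10, and Galnt13, a mucin-type glycosyltransferase, by -0.55 and 0.79.

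**Figure D3:**
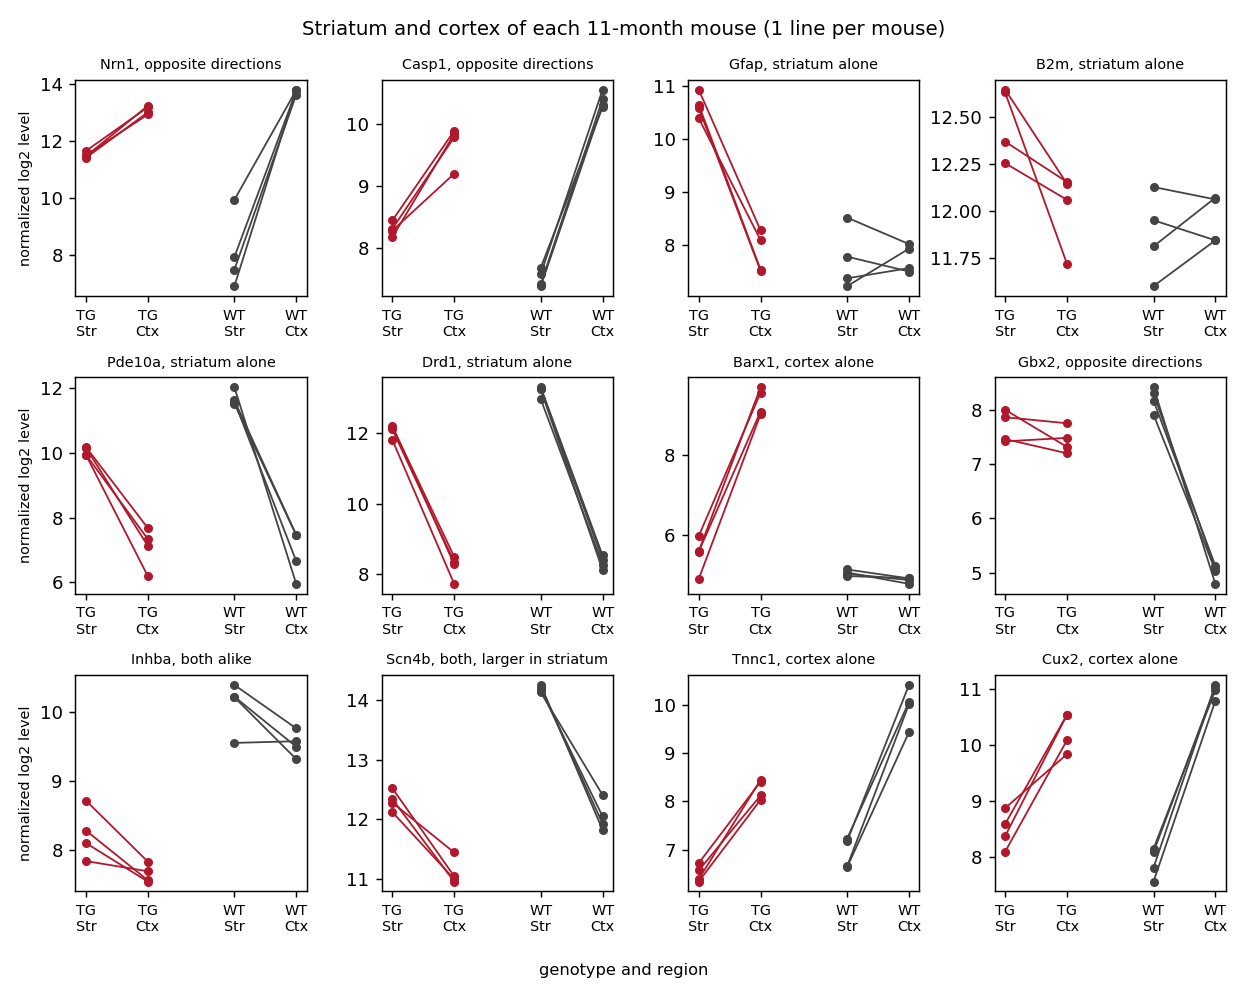
Normalized log2 level of 12 genes in striatum (Str) and cortex (Ctx) of each 11-month mouse; every line joins the 2 regions of 1 mouse, TG in red on the left and WT in grey on the right of each panel, with the class in the title. For Nrn1 the TG lines climb less from striatum to cortex than the WT lines do, and for Gbx2 the steep WT fall is nearly flat in TG mice.

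The features that changed alike were 236 lower and 189 higher ones. Inhba, the activin subunit induced by activity, had 7.84, 8.28, 8.71 and 8.10 in TG striata, against 10.21, 9.55, 10.39 and 10.22 in WT striata, and 7.69, 7.56, 7.83 and 7.54 in TG cortex, against 9.31, 9.57, 9.76 and 9.49 in WT cortex. Groups were apart in both regions, the changes were -1.86 and -1.88, and the difference was 0.02 (95% interval -0.41 to 0.45). Tesc, a calcium-binding protein, changed by -1.30 and -1.35 (interval -0.33 to 0.43), and Car12, a carbonic anhydrase, by -1.47 and -1.39 (-0.56 to 0.41), near background in cortex. Eif2ak2, the double-stranded RNA kinase, was higher by 0.92 and 0.89 (-0.26 to 0.32), and Sult1a1, a sulphotransferase, by 1.33 and 1.14 (-0.12 to 0.51). Apod, a lipocalin of glia, was higher by 0.97 and 1.02, with overlapping cortical groups.

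Activity-dependent genes fell in both regions. Of 28 tested immediate early genes, 15 were lower and 0 higher in TG striatum, 13 were lower and 1 higher in TG cortex, and the difference passed for 0 (medians -0.56 and -0.53). Shares of all features lower were 9.74% in striatum and 8.72% in cortex. Egr2, a zinc-finger factor, changed by -2.57 and -2.61, and Npas4, a factor of synapse formation, by -2.34 and -1.92. Homer1, a postsynaptic scaffold, had changes of -1.02 and -0.58, with a difference of -0.44 that did not pass (95% interval -0.71 to -0.16, adjusted p = 0.0575), and Arc, which moves glutamate receptors, -1.23 and -0.99. Fos did not pass in either region (-0.51 and -0.52). Bdnf, a neuronal growth factor, fell in cortex (-1.23) where it was detected on all arrays; in striatum it was detected on 1 of 8 arrays, and the difference did not pass (adjusted p = 0.354). No difference between regions passing does not show equal change: the 95% interval of a difference reached a median 0.44 to either side, that of a striatal change 0.33 and that of a cortical change 0.35.

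Counts for ion channel, signalling and metabolic lists are to be read beside the shares of all features. Those were 9.74% lower and 8.42% higher in striatum, 8.72% lower and 6.65% higher in cortex, and 5.05% with a difference that passed. Of 42 potassium channel genes, 14 were lower in TG striatum and 15 in TG cortex, with 3 differences below 0 and 0 above: Kcnj4, an inward rectifier, changed by -1.01 and -0.15 and Kcnab1, a beta subunit, by -0.76 and -0.02, and Kcnd2, an A-type channel, by -0.69 and -0.21. The call for Kcnab1 was lost without TG mouse 3 or WT mouse 4, and that for Kcnd2 without any of 6 mice (TG mice 1, 2 and 3, WT mice 2, 3 and 4). Of 56 calcium and cyclic AMP signalling genes, 24 were lower in striatum and 16 in cortex, with 5 differences below 0 and 3 above, led by Ryr1, the ryanodine receptor (-3.15 and -0.85, the cortical change not passing and below background in TG cortex; adjusted p of the difference = 9.29e-05). Of 25 glutamate receptor and scaffold genes, 12 were lower in striatum and 9 in cortex, with 1 difference, that of Grm8, a presynaptic receptor (-0.78 and 0.14). Of 21 cholesterol synthesis genes, 6 were lower and 1 higher in striatum and 7 lower and 0 higher in cortex; Msmo1, a sterol oxidase, fell more in striatum (-0.97 and -0.37), a difference lost without TG mouse 3 or WT mouse 4. Of 23 interferon and antigen presentation genes, 9 were higher in striatum and 4 in cortex, with B2m, the class I light chain, higher in striatum alone (0.60 and 0.06, lost without TG mouse 1 or 4 or WT mouse 1 or 4). Of 34 proteasome genes, 9 were higher in striatum and 6 in cortex, with 1 difference above 0 and 1 below. Psmb10, an immunoproteasome subunit, was higher in striatum alone (0.93 and -0.20). Psma4 was higher in cortex alone, a difference lost without TG mouse 1, 2, 3 or 4 or WT mouse 1, 2 or 4. Of 48 respiratory chain genes the difference passed for none, with 2 higher and 0 lower in striatum and 2 higher and 3 lower in cortex.

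**Figure D4:**
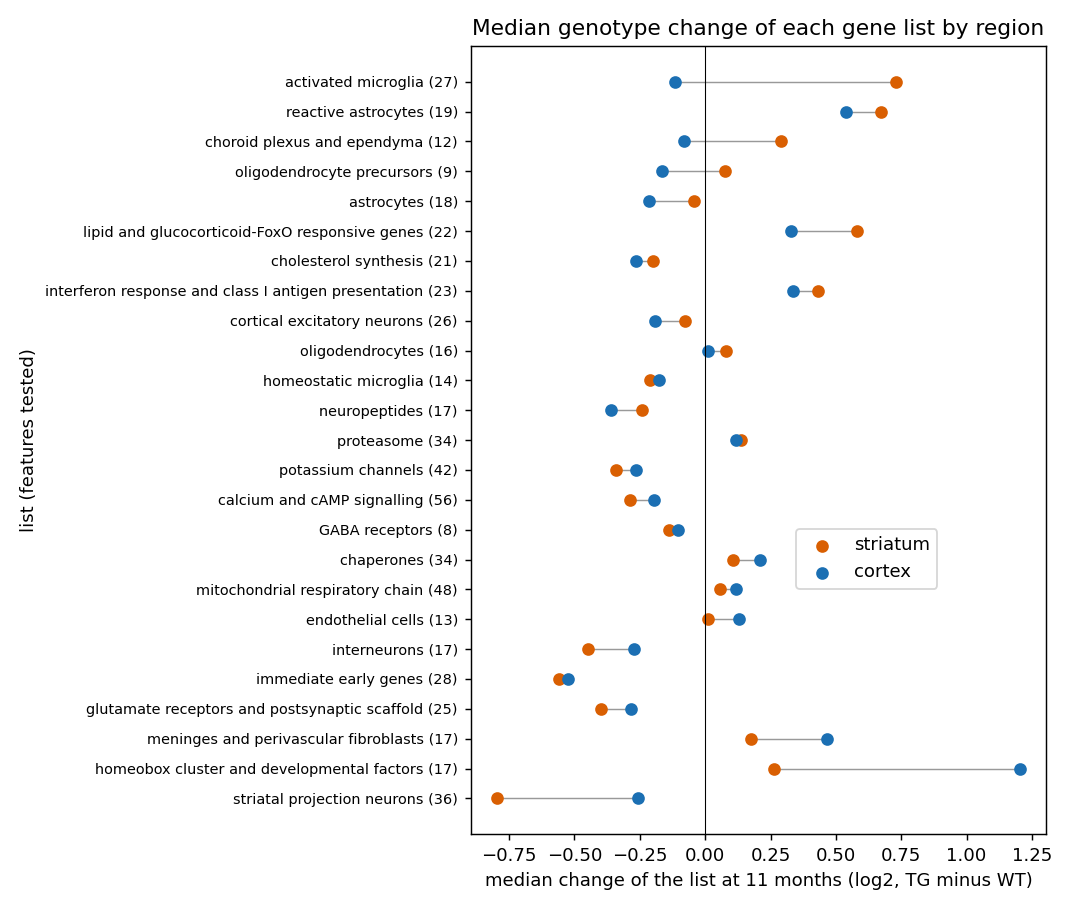
Median change at 11 months of each gene list in striatum (orange) and cortex (blue), as log2 of TG minus WT (x axis), with the number of features tested after the list name; lists are ordered by the median of their members' differences, and the meninges and choroid plexus lists were added after seeing the data. Activated microglia genes stand at 0.73 in striatum and -0.11 in cortex, homeobox and developmental factors at fitted medians of 0.26 and 1.21, and projection neuron genes at -0.80 and -0.26.

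The regional split passed the threshold at 7 months, and for no feature at 2 months. The difference between regions passed for 0 features at 2 months (limma; 355 had an unadjusted p under 0.05) and 177 at 7 months, in other mice than those of 11 months. Features lower in striatum alone at 11 months had a median difference of -0.04 at 2 months and -0.62 at 7 months, against -0.91 at 11 months, and 169 of the 176 (96%) had the same sign at 7 months. The sign was also the same for 104 of 110 features higher in striatum alone (94.5%), 108 of 118 lower in cortex alone (91.5%), 48 of 61 higher in cortex alone (78.7%) and 34 of 34 opposite features, against 60.2% of all features. At 2 months the sign was that of 11 months for 60.8% of features lower and 63.6% of those higher in striatum alone. It was so for 67.8% lower and 27.9% higher in cortex alone, against 50.7% of all features. Gfap had a difference of 0.18, 3.48 and 2.81 and Nrn1 of 0.22, 2.75 and 4.09 at 2, 7 and 11 months; from 7 to 11 months neither change passed (adjusted p = 0.837 and 0.814).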

How the data were processed

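RNA of cortex and striatum was hybridised to Illumina MouseRef-8 v2 arrays from 100 ng per sample, per the labels' protocols. The authors deposited a linear intensity and a detection p-value for each of 25697 probes, not normalized. Their deposited log2 values equal quantile-normalized log2 intensities without background correction (largest sorted difference 5e-09); the scanner is not given in the sources used here.

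neqc corrected the background and set all 48 arrays to common quantiles (limma 3.58.1, R 4.3.3, offset 16). The brightest probe stood for each gene, and features detected (p under 0.05) on at least 4 of 24 arrays in either region were kept. limma with 6 group means, sex and an intensity trend was fitted to each region and to the within-mouse difference striatum minus cortex, so the mouse name in the labels is the pairing. P-values were adjusted by Benjamini-Hochberg. An "at least" fold sets the brighter group's mean against, per array, the higher of the lowest detected signal and the probe's own value. The number of arrays limits precision.

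Members and lists were chosen with earlier results of these data known. Named genes are the largest differences, the largest changes of each class, up to 3 passing members per list and 15 fixed genes; Arpp21, Rgs4, Apoe and other list members are named from their list, after their values were seen. The fits were tested on simulated data. Alternatives covered normalization, filter, probe, mice, covariates, pairing and sample numbers.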

Additional observations from a re-analysis of the deposited data

Results flagged for a closer look

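Among 196 groups of 4 mice (the within-mouse difference striatum minus cortex of each named gene in each genotype), 13 held 1 mouse far from the other 3, where chance alone flags about 1 group in 20. In TG mice these were Ch25h, a cholesterol hydroxylase, with 1.05 in mouse 2 and 2.78 to 3.12 in the others, Rem2 with 3.29 in mouse 1, and Rtp1 with -1.56 in mouse 2. In WT mice, mouse 3 stood apart for Aspg (-0.01, the others -1.4 to -1.2), Evc2 (-3.39), Grm8 (0.85) and Pdk4 (0.77), mouse 2 for Pdyn (2.15), Ppp1r1b (3.38) and Zfp385b (0.53), mouse 1 for Itga9 (2.06) and Pou4f1 (-0.11, the others 0 to 0.03), and mouse 4 for Casp1 (-2.58). In these mice Pou4f1 was not well above background in either region, nor was Itga9 in cortex, so their flagged values rest on background signal.

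Tested directly, the genotype difference between regions was not the same at 11 and at 2 months for 108 features, and at 11 and at 7 months for 7 features. Between male and female mice at 11 months it differed for 0 features (limma; 877 had an unadjusted p under 0.05).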

How the results depend on the processing

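The mouse was the pairing in the reported fit. With no replicate block, 597 differences passed (487 of them among the 585 reported), and with the mouse as a random replicate block 787, with 270 features in cortex alone. The 585 reported differences kept their sign wherever they were tested, except 1 of them (584 kept) with the mean of a gene's probes. Leaving out 1 mouse gave 373 to 629 differences, 1578 to 1990 changes in striatum and 1401 to 1657 in cortex, with 178 to 330 features in striatum alone, 113 to 176 in cortex alone, 267 to 362 alike and 20 to 36 opposite. With only the 8 mice of 11 months, 115 differences passed, 801 changes in cortex, and the classes held 64, 31, 167 and 19 features (striatum alone, cortex alone, alike, opposite). That setting has fewer mice to estimate the spread.

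Scaling each array to a common median in place of quantile normalization moved the median striatal change of all features to -0.13 and the median difference to -0.15; 421 differences passed, 26.6% of them above 0 against 49.9% in the reported fit, with 618 changes in cortex and 81, 83 and 16 features in cortex alone, alike and opposite. Median differences were then 0.62 for activated microglia, -0.85 for projection neurons and -0.19 for developmental factors, the last close to the shift of all features. Without background correction, as in the authors' values, 821 differences passed, and Dmkn, a skin protein alike in both regions, gave -0.94 (adjusted p = 2.29e-05).

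Internal sample numbers touch these results. With eights of numbers as a fixed factor 193 differences and 1360 striatal changes passed, with 80, 63 and 215 features in striatum alone, cortex alone and alike. Numbers 1 to 32 against 33 to 48 as a factor gave 797 differences and 59 opposite features. With both arrays in numbers 1 to 32 (3 TG, 2 WT mice) 140 differences, 1212 striatal and 1057 cortical changes passed, and the classes held 76, 44, 84 and 19. With no array in numbers 1 to 8 (2 mice each) 67 differences, 603 striatal and 590 cortical changes passed, and the classes held 27, 23, 60 and 4. The cause was not tested, beyond the fewer mice of the last 2. The narrower planned bound on alike changes left 72 alike features. Over the 98 named genes and 25 settings, 2100 values kept direction and side of the threshold, 287 no longer passed, 12 newly passed and the 2 of Dmkn reversed; 66 sign changes, in 15 genes, were of differences that passed in neither setting. A signal near background limits dim genes.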
